A study of Saccharomyces cerevisiae with 12 samples.

Results

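Peaks of RNA polymerase II (Pol II) that spread over more than 1 gene were described in budding yeast (Saccharomyces cerevisiae) lacking the DEAD-box RNA helicase Dbp2 and in wild-type cells. A peak was taken when it covered at least 50% of the length of each of 2 or more annotated genes of genome build R64. This held for 299 of the 1628 peaks in dbp2Δ (18.4%, Wilson 95% interval 16.6 to 20.3) and for 268 of the 1642 peaks in wild type (16.3%, 14.6 to 18.2), together 567 of 3270 peaks. The peaks were chosen by their measured start and end, so their number and width are given as a description. Of the remaining peaks, 617 in dbp2Δ and 591 in wild type covered 1 gene, and 712 and 783 covered none by this rule.

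The dbp2Δ strain was MATa with DBP2 replaced by KanMx6 (dbp2::KanMx6). The wild-type strain was MATa with DBP2 intact. Both strains also carried his3Δ1, with leu2Δ0, met15Δ0 and ura3Δ0, and both expressed Rpb3, a Pol II subunit, with a 3XFLAG tag. Cells grew in rich medium with 2% glucose at 30 °C and were fixed for 15 min in 1% formaldehyde, and tagged Pol II was immunoprecipitated after sonication. Each strain contributed 3 immunoprecipitates and 3 inputs, labelled as biological replicates, 12 libraries in all. The authors merged the 3 libraries of each kind before calling peaks, so there is 1 peak list per strain, no spread between replicates and no test between the strains. Intervals in the text cover the number of peaks or gene pairs counted and nothing else.

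Yeast genes lie close together. Neighbours can be tandem, on the same strand with the 3′ end of one facing the 5′ end of the next. They can be divergent, with both promoters between them, or convergent, with both 3′ ends between them. Pol II enters at a promoter, elongates through the coding region and is released past the polyadenylation site, so that occupied chromatin extends beyond both ends of an active gene. Chromatin immunoprecipitation records no strand, and Pol II between convergent genes cannot be assigned to either. It also cannot tell Pol II on both genes of 1 cell from Pol II on 1 gene in some cells and on its neighbour in others. Dbp2 is known to act on RNA during and after transcription.

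The pooled immunoprecipitates held 4551809 fragments in dbp2Δ and 4073418 in wild type, and 4030024 and 3648848 of these were left once duplicates had been filtered out. The pooled inputs held 4748970 fragments in dbp2Δ and 5106431 in wild type after this step. The recorded fragment size was 290 bp in dbp2Δ and 260 bp in wild type. No peak was shorter than this size and no gap between neighbouring peaks was smaller than 291 bp in dbp2Δ or 261 bp in wild type. A gap of 261 to 290 bp was therefore seen in the wild-type list only. The largest gap to be joined is recorded as the tag size (read length). The limits used here are those seen in the lists, and their source was not tested. Each fold enrichment below is the authors' own value at a peak's summit, the position of its highest signal. It is used to rank peaks of the same list, and where values of both lists stand together no direction is drawn.

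The deleted gene itself lay in such a peak. In dbp2Δ, DBP2 (YNL112W, chromosome XIV, 413639 to 416281) was 0% covered. A peak of 704 bp (412697 to 413400, fold enrichment 2.32) ended before it, and a peak of 2311 bp over CYB5 and NOP15 (416311 to 418621, 3.20) began after it. In wild type a single peak of 5955 bp (412690 to 418644, 5.69) covered RPC19, DBP2, CYB5 and NOP15, with its summit inside DBP2 at 413763. CYB5 encodes cytochrome b5, RPC19 a subunit shared by RNA polymerases I and III, and NOP15 a ribosome biogenesis factor. The pairs that DBP2 formed with RPC19 and CYB5 count below among those joined in wild type only.

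Most of these peaks joined 2 genes. In dbp2Δ 207 covered 2 genes, 71 covered 3, 13 covered 4, 6 covered 5, 1 covered 6 and 1 covered 7. In wild type 196 covered 2 genes, 54 covered 3, 12 covered 4, 5 covered 5 and 1 covered 7. Peaks with 3 or more genes numbered 92 in dbp2Δ and 72 in wild type. Together the peaks held 722 genes in dbp2Δ, 53.9% of the 1339 covered genes and 11.2% of all nuclear genes. In wild type they held 634, 51.8% of the 1225 covered and 9.86% of all. In 17 dbp2Δ and 22 wild-type peaks all member genes overlapped one another, as a snoRNA gene within an intron does.

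In width, the peaks had a median of 2662 bp in dbp2Δ (quartiles 1962 and 3739, range 430 to 12029) and 2589 bp in wild type (1847.5 and 3560, range 275 to 12014). Peaks over 2 genes had a median of 2334 bp in dbp2Δ and 2312.5 bp in wild type, peaks over 3 genes 3372 and 3274.5 bp, and peaks over 4 or more 6115 and 6049.5 bp. Peaks over 1 gene had medians of 1520 bp in dbp2Δ and 1490 bp in wild type. Of the peaks wider than 5000 bp, 41 of 48 in dbp2Δ and 37 of 44 in wild type covered 2 or more genes. They made up 39.0% of all covered bases in dbp2Δ (0.940 of 2.41 Mb) and 37.0% in wild type (0.827 of 2.24 Mb).

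They were also among the highest peaks of each list. The median fold enrichment was 4.35 in dbp2Δ (range 1.36 to 19.6), against 1.88 for the other peaks of that list, and 4.24 in wild type (range 1.46 to 19.5), against 1.86. Of the 100 highest peaks, 70 in dbp2Δ and 69 in wild type covered 2 or more genes. A wider peak has more positions at which a summit can lie, and its part in these values was not tested.

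At the threshold, the second most covered gene decided membership. Just inside it in dbp2Δ were LSM7 with YNL146C-A (50.2%), MRPL27 with SSH1 (51.7%) and MTQ1 with GCD10 (52.2%), and just outside RPL4B with PSF1 (48.6%), PPT2 with ATG5 (47.8%) and EGD1 with MET31 (47.8%). Just inside it in wild type were YMR050C with YMR051C (50.2%), RPL3 with YNG1 (50.6%) and FCY1 with YPR063C (50.7%), and just outside TMA19 with OAR1 (49.9%), SSA2 with POM33 (49.8%) and TSA1 with YOX1 (49.6%). The second gene was covered over 50 to 55% in 10 dbp2Δ and 21 wild-type peaks, and over 45 to 50% in 11 and 10 peaks that stayed outside.

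The peak with the most genes was the same locus in both lists. It covered the 7 tandem snoRNA genes SNR78 to SNR72 on chromosome XIII, which are processed from 1 polycistronic transcript into guides for rRNA methylation. This peak ran from 296889 to 299014 in dbp2Δ (2126 bp, fold enrichment 13.7) and from 296619 to 299041 in wild type (2423 bp, 12.9), with summits 24 bp apart between 2 of the genes. A peak over RPL24A, RPL30, CGR1, the tRNA gene YNCG0020C and SCW11 was likewise shared (chromosome VII, 437047 to 443161 in dbp2Δ, 8.65, and 437084 to 443227 in wild type, 9.33). Its summit lay in the ribosomal protein gene RPL30 in both.

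The next largest differed in extent between the lists. In dbp2Δ 1 peak of 9124 bp on chromosome XII (257488 to 266611, 7.86) covered SHM2, REX2, FRS1, RPL22A, BMT6 and PER33. In wild type the peak over the last 5 began at 259897 (6655 bp, 8.36), and SHM2, which encodes the cytosolic serine hydroxymethyltransferase, stood under its own peak 283 bp away. A gap of that size was not seen in the dbp2Δ list, where none was smaller than 291 bp. The tRNA gene YNCP0020W, NOC4, SNR45, ASN1 (an asparagine synthetase gene) and YPR145C-A shared a dbp2Δ peak (chromosome XVI, 819307 to 824812, 9.80), whereas YPR145C-A was 0% covered in wild type. TMA19, OAR1, DEF1, MDM35 and ASK1, 5 tandem genes, shared a dbp2Δ peak of 6653 bp (chromosome XI, 333775 to 340427, 7.53). The tRNA gene YNCL0040W, SNR61, SNR55, SNR57 and RPS25B shared another (chromosome XII, 793840 to 796522, 8.98), and the tRNA gene was 0% covered in wild type.

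Among wild-type peaks, NOP12, RPS15, RPP2A, YOL038C-A and PRE6 lay under 1 peak (chromosome XV, 251062 to 256618, 9.79) that was broken in dbp2Δ. DBP3, HNM1, RPL7A, SNR39 and SNR39B shared a wild-type peak of 7014 bp (chromosome VII, 359894 to 366907, 10.1). RRP9, YPR137C-B, YPR137C-A, the tRNA gene YNCP0019W and MEP3 shared one of 9593 bp (chromosome XVI, 802275 to 811867, 3.44), which had a dbp2Δ counterpart over the same genes. YPR137C-B and YPR137C-A belong to a Ty retrotransposon, whose near-identical copies elsewhere make the placement of reads uncertain.

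To ask which arrangements of genes were joined, each member was paired with its next neighbour in the same peak. Of the 6251 neighbouring gene pairs of the genome that do not overlap, 377 lay under 1 peak in dbp2Δ (6.03%) and 317 in wild type (5.07%). Of these joined pairs, 181 were tandem in dbp2Δ and 151 in wild type, which is 6% and 5% of the 3019 tandem pairs of the genome. Divergent pairs numbered 51 in dbp2Δ and 63 in wild type (3.15% and 3.89% of 1618). Convergent pairs numbered 145 in dbp2Δ and 103 in wild type (8.98% and 6.38% of 1614). As shares of the joined pairs, tandem pairs made up 48.0% in dbp2Δ and 47.6% in wild type, divergent pairs 13.5% and 19.9%, and convergent pairs 38.5% and 32.5%. Among all pairs of the genome these shares are 48.3%, 25.9% and 25.8%. Joined pairs thus held more convergent and fewer divergent pairs than the genome in both lists, and the gap between these classes was wider in dbp2Δ.

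Since a pair can be joined only where both genes are occupied, the pairs with both genes covered were also used as the base. Of these, 377 of 475 were under 1 peak in dbp2Δ (79.4%) and 317 of 389 in wild type (81.5%). Convergent neighbours were joined in 145 of 146 cases in dbp2Δ (99.3%) and 103 of 105 in wild type (98.1%). Tandem neighbours were joined in 181 of 224 (80.8%) and 151 of 185 (81.6%). Divergent neighbours were joined in 51 of 105 in dbp2Δ (48.6%, 39.2 to 58.0) and in 63 of 99 in wild type (63.6%, 53.8 to 72.4), with intervals that overlap. In both lists divergent neighbours were thus the least often joined.

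**Figure D1:**
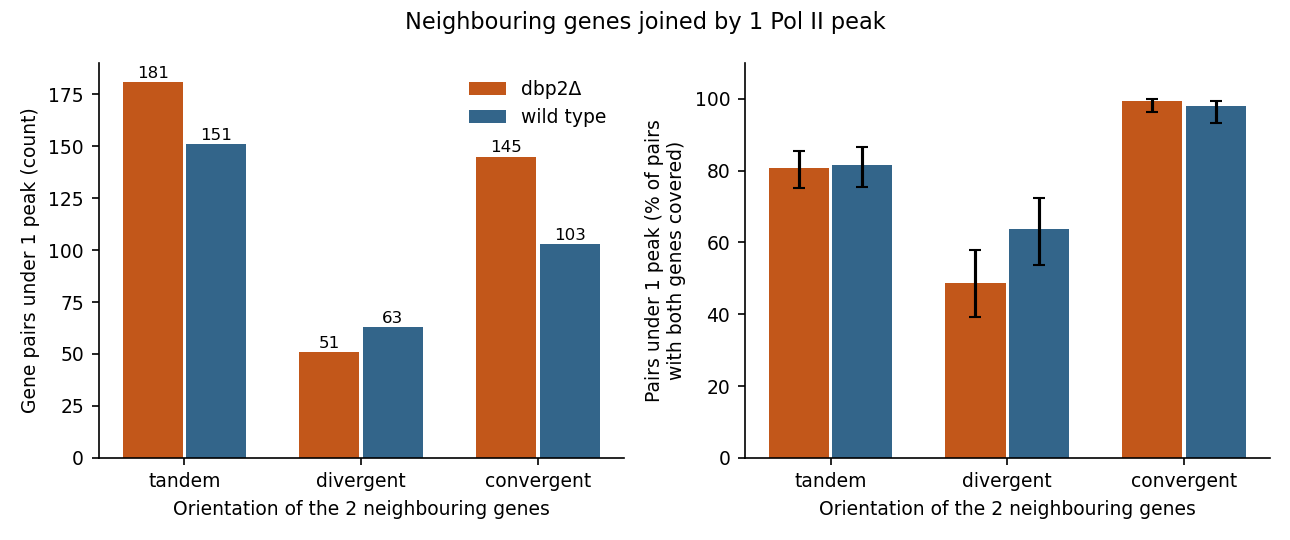
Left, number of neighbouring gene pairs under 1 peak by orientation; right, joined pairs as a percentage of pairs with both genes covered, with Wilson 95% intervals over pairs as error bars. Convergent pairs number 145 in dbp2Δ and 103 in wild type and are joined in nearly all cases, while divergent pairs are joined in 48.6% and 63.6%.

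The distance between coding regions ordered the joined pairs. It had a median of 315 bp for joined and 772.5 bp for covered but separate pairs in dbp2Δ, and of 337 and 790.5 bp in wild type. Convergent neighbours under 250 bp apart were joined in 86 of 86 cases in dbp2Δ and 51 of 51 in wild type, which is 9.30% and 5.51% of the 925 such pairs in the genome. The smallest gap was 291 bp in dbp2Δ and 261 bp in wild type, so no gap seen could lie wholly between such genes. For convergent neighbours 250 to under 500 bp apart the joined numbers were 47 in dbp2Δ and 39 in wild type, and for those 500 to under 1000 bp apart 11 and 13. The larger number of joined convergent pairs in dbp2Δ therefore came from pairs under 500 bp apart.

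Divergent neighbours 250 to under 500 bp apart were joined in 23 of 34 cases in dbp2Δ (67.6%, 50.8 to 80.9) and 29 of 33 in wild type (87.9%, 72.7 to 95.2). Those 500 to under 1000 bp apart were joined in 15 of 45 (33.3%) and 17 of 36 (47.2%). Divergent neighbours under 250 bp apart were joined wherever both were covered, 10 pairs in dbp2Δ and 12 in wild type. They too lie closer together than the smallest gap of either list. Of the 164 neighbouring pairs with overlapping spans, counted apart, 46 were joined in dbp2Δ and 49 in wild type.

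**Figure D2:**
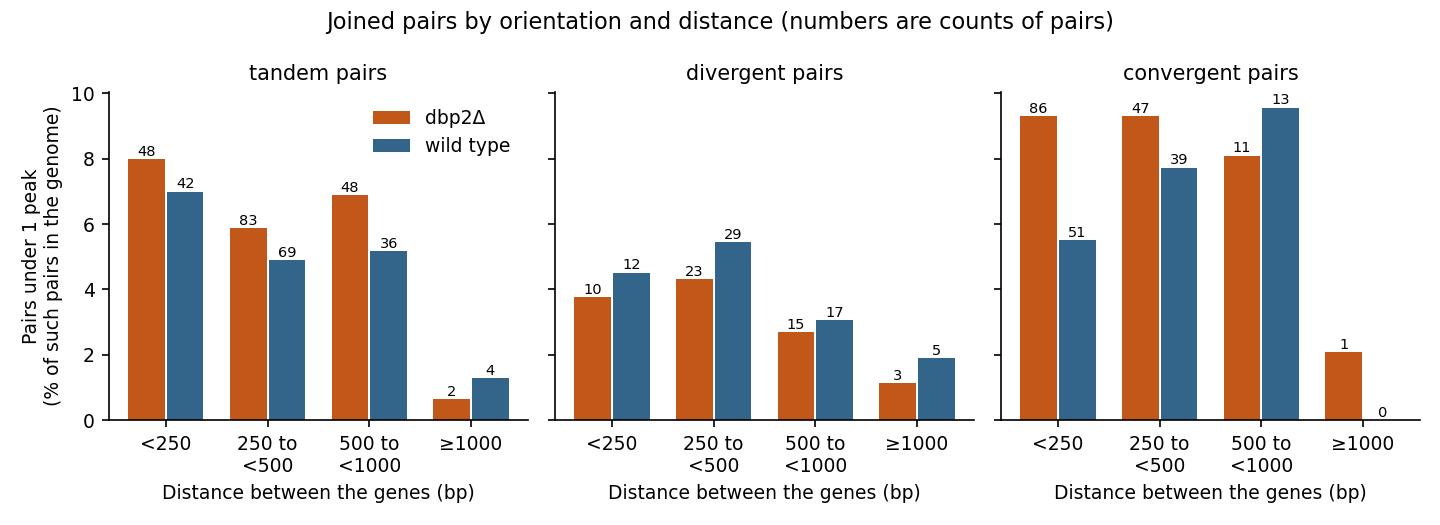
Share of all neighbouring gene pairs of the genome that lie under 1 peak, by orientation and by the distance between the genes in bp, with the number of joined pairs above each bar. Convergent pairs under 250 bp apart stand at 9.30% in dbp2Δ and 5.51% in wild type, while divergent bars are lower in dbp2Δ at every distance.

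Highest among peaks over exactly 2 tandem genes that do not overlap was, in dbp2Δ, RPL28 with YGK1 (chromosome VII, 310725 to 313286, fold enrichment 15.5). It was followed by TRX1 with PDC1 (12.7), PCL1 with SNR40 (12.5) and PPH21 with RPL41B (11.8). In wild type the order began with PCL1 and SNR40 (15.5), RPL28 and YGK1 (15.3), SNR8 and YTM1 (15.0), and ENO2 with CTR2 (14.4). PDC1 and ENO2 encode the glycolytic and fermentative enzymes pyruvate decarboxylase and enolase. In dbp2Δ, SNR8 and YTM1 did not share a peak, and 74.5% of YTM1 was covered by separate peaks of which none alone reached 50%.

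Convergent pairs were led in both lists by AHP1, a peroxiredoxin gene, and CCW12, a cell wall protein gene (chromosome XII, 368693 to 370429 in dbp2Δ, 19.5, and 368631 to 370454 in wild type, 17.7). The coding regions end 385 bp apart. Next in dbp2Δ came RPS31 with UPS2 (15.2), COQ21 with LSR1, the U2 snRNA gene (14.4), and RPL3 with YNG1 (14.0). Next in wild type came PAM16 with SNR37 (15.5), RPL3 with YNG1 (14.2) and SNR49 with BRE5 (14.0).

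Divergent pairs were lower in both lists. YKL096C-B with the cell wall gene CWP2, 30 bp apart, led with 10.1 in dbp2Δ and 9.20 in wild type. Next in dbp2Δ came RPL20A with YMR242W-A (6.18), SPE2 with SNR81 (5.52) and the histone H3 and H4 genes HHT2 and HHF2 (5.49). Next in wild type came YIL134C-A with SNR68 (8.26), HHT2 with HHF2 (6.85) and RPS28A with GLN4 (6.61).

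By kind of gene, 215 of the dbp2Δ peaks (71.9%) and 196 of the wild-type peaks (73.1%) joined protein-coding genes alone. The 6431 nuclear genes include 76 snoRNA, 6 snRNA and 275 tRNA genes. A snoRNA gene was a member of 47 dbp2Δ peaks (15.7%) and 44 wild-type peaks (16.4%). These peaks had medians of 2126 bp and a fold enrichment of 7.45 in dbp2Δ, and of 2131 bp and 9.86 in wild type. The summit fell within a snoRNA gene in 18 of the 47 and 21 of the 44. An snRNA gene was a member of 3 peaks in each list, and it held the summit in all of them.

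A tRNA gene, transcribed by RNA polymerase III, was a member of 36 of the 299 dbp2Δ peaks and 24 of the 268 wild-type peaks. It held the summit in 1 of the 36 and 0 of the 24. In 22 of the 36 and 12 of the 24 the summit lay in no member gene. A tRNA gene is far shorter than such a peak, and the part of its length in these counts was not tested. The median fold enrichment of these peaks was 3.61 in dbp2Δ and 3.38 in wild type, and their median width 2622.5 and 4094.5 bp.

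Ribosomal protein genes were all covered in both lists, and 82 of the 138 shared their peak with another gene in dbp2Δ (59.4%, 51.1 to 67.3), as did 74 of 138 in wild type (53.6%, 45.3 to 61.7). This stood beside 53.9% and 51.8% of all covered genes. Ribosome biogenesis genes did so for 33 of 82 covered genes in dbp2Δ (40.2%) and 23 of 67 in wild type (34.3%). Translation factor genes did so for 9 of 29 and 10 of 29, and glycolysis and fermentation genes for 8 of 14 and 7 of 14. Histone genes, most of which lie in divergent pairs, did so for 7 of 9 in dbp2Δ and 8 of 9 in wild type. The tRNA genes did so for 36 of 63 covered in dbp2Δ (57.1%, 44.9 to 68.6) and 24 of 33 in wild type (72.7%, 55.8 to 84.9). Among snoRNA genes the numbers were 62 of 75 (82.7%) and 59 of 75 (78.7%), the highest share of any list with 10 or more covered genes. Some snoRNA genes overlap another member gene, as SNR18 does EFB1, or lie in the array SNR78 to SNR72. For those, sharing a peak follows largely from the annotation.

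The summit lay in a member gene in 183 of 299 peaks in dbp2Δ (61.2%, 55.6 to 66.6) and in 197 of 268 in wild type (73.5%, 67.9 to 78.4). It lay between member genes in 83 dbp2Δ peaks (27.8%) and 44 wild-type peaks (16.4%). In the remainder it lay outside the member genes, in 29 dbp2Δ (9.70%) and 25 wild-type peaks (9.33%), or in a gene under 50% covered, in 4 and 2. Coding spans hold no UTRs, so a summit between genes can lie in the transcribed 5′ or 3′ UTR of either.

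The place of the summit differed between orientations. Of convergent peaks with exactly 2 genes that do not overlap, 27 of 91 in dbp2Δ (29.7%) had it between the genes, next to both 3′ ends, against 7 of 65 in wild type (10.8%). Of tandem peaks, 25 of 90 in dbp2Δ (27.8%) and 14 of 85 in wild type (16.5%) had it between the genes. The downstream gene of a tandem pair held it in 31 dbp2Δ peaks (34.4%) and 41 wild-type peaks (48.2%), and the upstream gene in 20 (22.2%) and 28 (32.9%). Of divergent peaks, 0 of 9 in dbp2Δ and 5 of 24 in wild type had it between the genes, where both promoters lie. The longer of the 2 genes held the summit in 60 of 115 cases in dbp2Δ (52.2%) and 69 of 129 in wild type (53.5%).

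Within the gene that held it, the summit was nearer to the 3′ end in dbp2Δ. Its median position was 68.0% of gene length from the 5′ end in dbp2Δ and 12.4% in wild type. The first 50% of the gene held it in 49 of 115 cases in dbp2Δ and 96 of 129 in wild type. For convergent pairs the medians were 81.1% in dbp2Δ and 29.7% in wild type, and for tandem pairs 36.0% and 8.80%. These medians compare different peaks in the lists, which the next comparison avoids. The gene that held the summit was fully covered in 85 of 115 cases in dbp2Δ and 121 of 129 in wild type. For convergent pairs this held in 36 of 58 and 43 of 46. A summit cannot lie in a part of a gene that its peak leaves uncovered, and the effect of this on the medians was not tested.

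In 155 peaks the member genes were the same in both lists. Of these, 68 had the summit in the same single gene in both. Its median position in these genes was 53.2% in dbp2Δ and 13.0% in wild type, with a median shift of 43 bp toward the 3′ end (quartiles −1 and 384 bp). The dbp2Δ summit lay closer to the 3′ end in 49 genes and closer to the 5′ end in 18, and in 1 it was the same. Both counts include shifts of a few bp, as in CCW12 (1 bp) and CDC19 (−1 bp). The fragment size was 30 bp larger in dbp2Δ, and its part in the shifts was not tested. The dbp2Δ summit lay over 500 bp closer to the 3′ end in 16 genes and over 500 bp closer to the 5′ end in 0.

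The examples that follow were chosen after their values were seen. In NRP1, joined with FAP7, the summit stood at 97.5% of gene length in dbp2Δ and 2.73% in wild type. This was the 1 gene of the 68 whose dbp2Δ summit lay outside the wild-type peak compared, and 2 wild-type peaks overlapped the dbp2Δ peak. In GAS1, a cell wall glucanosyltransferase gene joined with PSE1 and NIP1, it stood at 99.4% in dbp2Δ and 4.17% in wild type. In the squalene epoxidase gene ERG1 it stood at 92.5% and 6.24%, and in the ribosomal protein gene RPS0A at 89.1% and 6.76%. In FAS2, the 5664 bp gene of a fatty acid synthase subunit, it stood at 36.0% and 0.724%. All but that of FAS2 lay near the end of the gene in dbp2Δ, and each of them lay near its start in wild type. In other genes the summit kept its place. CCW12 had it at 81.3% in dbp2Δ and 81.0% in wild type, the U2 snRNA gene LSR1 at 11.6% and 11.2%, RPL28 at 10.3% and 7.40%, and SNR4 at 48.6% in both.

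**Figure D3:**
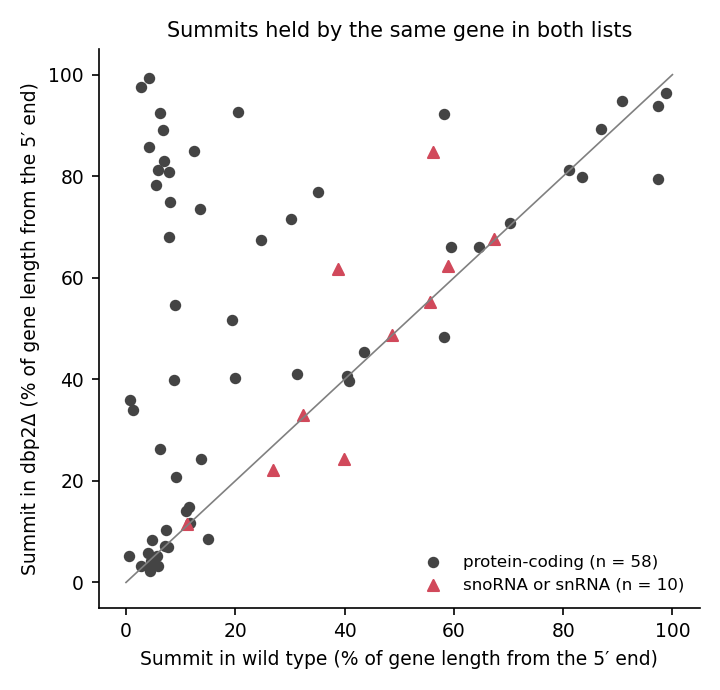
Position of the summit as a percentage of gene length from the 5′ end, dbp2Δ on the vertical and wild type on the horizontal axis, for the 68 genes that held it in both lists in peaks with the same member genes. Points above the diagonal lie closer to the 3′ end in dbp2Δ (49 genes), and a column of points at the left has dbp2Δ summits far along the gene and wild-type summits near the 5′ end.

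Across all 155 shared peaks the summits were a median of 114 bp apart, and 27 were over 1000 bp apart. In 81 peaks the summit lay in a gene in both lists. It lay in the same gene or overlapping genes in 70, and the genes that held it differed in 11. The 11 include the overlapping genes KTI11 with YBL071C and YER145C-A with LSM5. In these the summit lay in both genes in dbp2Δ and only in the first in wild type. MHF1 held it in dbp2Δ and its convergent neighbour ADH1, the alcohol dehydrogenase gene, in wild type, with the summits 1128 bp apart. NNR2 held it in dbp2Δ and its tandem neighbour GPM1, the phosphoglycerate mutase gene, in wild type. In 22 peaks it lay between the genes in dbp2Δ and in 1 gene in wild type, and in 6 the reverse. RPS2 with NAB2, HHF1 with HHT1 and IPP1, RPL37A with EMG1, and NME1 with SNR66 and KSH1 were among the 22.

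These 155 peaks were of nearly equal width, with medians of 2451 bp in dbp2Δ and 2423 bp in wild type. The median difference, dbp2Δ minus wild type, was 7 bp (quartiles −107 and 99.5). The dbp2Δ peak was wider in 82 and narrower in 73. The displacement of their outer edges differed with the gene end they faced. Either kind of edge can lie inside the outermost gene or beyond it. Where an outer edge lay on the side of a 3′ end (109 edges), it stood a median of 54 bp further out in dbp2Δ (quartiles 2 and 100), outward in 82 and inward in 26. On the side of a 5′ end (201 edges), it stood at a median of −26 bp, further in (quartiles −65 and 19), outward in 68 and inward in 131. The edges of 1 peak share its signal and are not independent.

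By the ends they faced, 13 peaks with a 3′ end on both sides were a median of 91 bp wider in dbp2Δ, 9 of them wider and 4 narrower. The 83 with a 3′ and a 5′ end were a median of 20 bp wider, and the 59 with a 5′ end on both sides had a median difference of −31 bp. The peak over HHT2 and HHF2, with 3′ ends outward, measured 2686 bp in dbp2Δ and 2595 bp in wild type. That over the ribosomal protein gene RPS28A and GLN4 measured 3786 and 3412 bp, and that over SNR128, SNR190 and RPA34 2770 and 2533 bp. Among the 4 narrower ones, the peak over the Ty genes YDR261C-D and YDR261C-C and the tRNA gene YNCD0020W measured 5971 bp in dbp2Δ and 6358 bp in wild type. The fragment size was 30 bp larger in dbp2Δ, and its part in the edges was not tested.

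**Figure D4:**
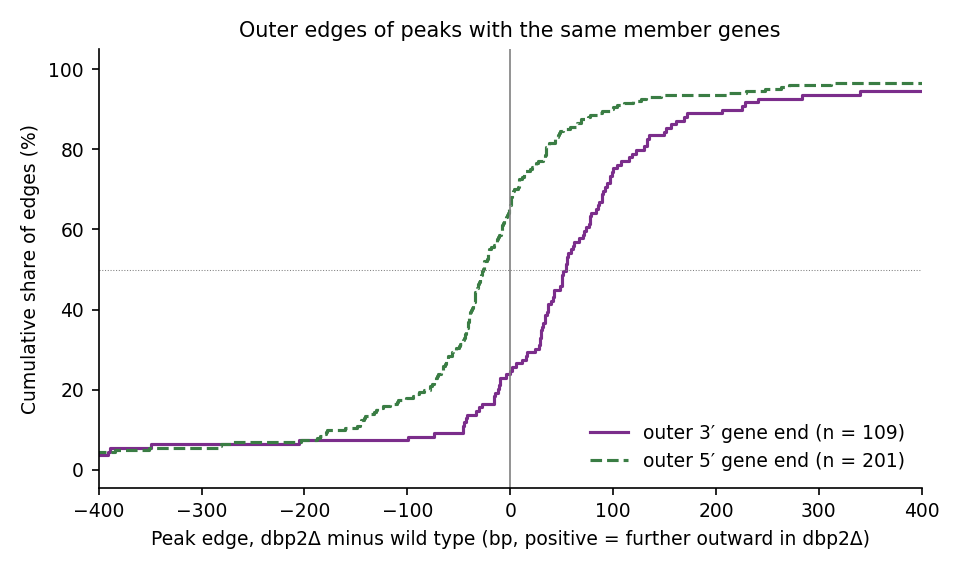
Cumulative share of outer peak edges by their displacement in bp, dbp2Δ minus wild type with positive values further outward in dbp2Δ, for the 155 peaks with the same member genes. Edges on the side of a 3′ gene end (n = 109) are displaced outward with a median of 54 bp. Edges on the side of a 5′ gene end (n = 201) are displaced inward with a median of −26 bp. Either kind can lie inside the outermost gene or beyond it. Edges displaced by over 400 bp lie outside the plot.

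Of the gene pairs joined in either list, 240 were joined in both, 137 in dbp2Δ only and 77 in wild type only. Tandem pairs numbered 64 in dbp2Δ only and 34 in wild type only, divergent pairs 14 and 26, and convergent pairs 59 and 17. In most of these pairs the other list had no single peak over 50% of at least 1 of the genes. Of the 137 pairs of dbp2Δ only, wild type had 1 gene covered in 112, neither in 14 and both under separate peaks in 11. Of the 77 pairs of wild type only, dbp2Δ had 1 gene covered in 51, neither in 5 and both under separate peaks in 21.

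In the 112 and 51 pairs, 1 gene was covered in both lists and the other by a single peak in 1 list only. In the 112 pairs of dbp2Δ only, this other gene lay past the 3′ end of the covered gene in 80 (71.4%, 62.5 to 79.0). Of these 80, 52 were convergent neighbours and 28 were downstream tandem neighbours. The remaining 32 lay past the 5′ end, as 21 upstream tandem and 11 divergent neighbours. In the 51 pairs of wild type only, it lay past the 3′ end in 23 (45.1%, 32.3 to 58.6), 14 of them convergent and 9 downstream tandem, the pairs of the deleted gene DBP2 included. The intervals, which cover pairs and not replicates, do not overlap here, but they do when 80% of a gene must be covered (67.7%, 57.7 to 76.4 in dbp2Δ, and 50%, 36.4 to 63.6 in wild type). Convergent and divergent pairs are about equally common in the genome (25.8% and 25.9%). Convergent genes lie nearer to each other, with 925 of 1614 such pairs under 250 bp apart, against 266 of 1618 divergent pairs. The part of this spacing was not tested.

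Some of these other genes belonged to a pair on either side, so that the 112 pairs held 105 distinct genes and the 51 pairs 49. Many were partly covered in the list where they were not joined. Of the 105 of dbp2Δ only, the median cover in wild type was 33.0%, with 67 at 25% or more and 11 at 0%. In 23 of them several wild-type peaks together covered 50% or more, with no single peak doing so. Of the 49 of wild type only, the median cover in dbp2Δ was 21.2%, with 22 at 25% or more, 18 at 0% and 5 covered to 50% or more by several peaks together. The 105 were 94 protein-coding and 11 tRNA genes, and the 49 were 48 protein-coding genes and 1 other. Of all 275 tRNA genes, 63 were covered in dbp2Δ and 33 in wild type.

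Among genes under a joined peak in dbp2Δ only, past the 3′ end of a convergent neighbour, were UTP20 beside the histone gene HTA2 (100% covered in dbp2Δ, 78.6% in wild type), NUP57 beside RPS23A (100% and 75.3%), DIP2 beside the zinc transporter gene ZRT2 (100% and 73.2%) and HIP1 beside TDH3 (90.2% and 63.2%). In these 4 no single wild-type peak reached 50% of the gene. RIO1, a kinase gene, was covered over 56.8% in dbp2Δ and 0% in wild type beside RTC5. Genes covered over 0% in dbp2Δ that shared a wild-type peak included HIS4 of histidine synthesis, upstream of RRP7, the phosphate-starvation genes SPL2, upstream of YCK1, and PHM6, convergent with RRP45, and BAR1, the protease gene of a-type cells, downstream of SNL1. These genes were also chosen after their values were seen.

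Counted by peak, the other list most often held the same genes under 1 peak. Of the 299 dbp2Δ peaks, 175 (58.5%) had all member genes under 1 wild-type peak and 38 had some of them so. In 65 wild type covered 1 of the genes, in 14 it covered none, and in 7 (2.34%, 1.14 to 4.75) the genes lay under separate wild-type peaks. Of the 268 wild-type peaks, 189 (70.5%) had all member genes under 1 dbp2Δ peak and 22 had some. In 37 dbp2Δ covered 1 gene, in 7 none, and in 13 (4.85%) the genes lay under separate dbp2Δ peaks. The order of these split counts turned to 11 dbp2Δ and 7 wild-type peaks when 80% of a gene had to be covered, and to 58 and 30 when a split meant 2 peaks at least 50% inside the joined one. A looser measure was 2 or more overlapping peaks in the other list, met by 62 of the 299 dbp2Δ and 37 of the 268 wild-type peaks. Among all peaks, 125 of 1628 met it in dbp2Δ (7.68%) and 68 of 1642 in wild type (4.14%). Peaks over 2 or more genes are wider than the rest, and the part of width in this was not tested.

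The 7 peaks joined in dbp2Δ and split in wild type involved 5 convergent and 2 tandem arrangements. The 5 convergent ones were classed by genes that are not next neighbours and have other member genes between them. Both tandem ones had all genes covered on either side of the gap. FBA1, the aldolase gene, and MPE1 shared a dbp2Δ peak (chromosome XI, 325950 to 328866, 7.09), against wild-type peaks of 11.3 and 1.82 separated by 268 bp. YGR054W and the methionine permease gene MUP1 shared one (chromosome VII, 596528 to 601679, 4.33), against wild-type peaks separated by 284 bp. Both gaps are shorter than any gap in the dbp2Δ list.

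In the 5 convergent ones each gene in the middle was covered by 1 dbp2Δ peak, while no single wild-type peak reached 50% of it. SNT309 lay between MRPL51 and RPL11A (dbp2Δ peak 6.04, 40.3% of SNT309 covered in wild type), and PDE2 between VTS1 and PRT1 (2.98, 19.5%). YER121W lay between SCS2 and GLO3 (1.78, 30.1%), and RBA50 between SNA2 and SNR84 (5.65, 62% by peaks from both sides). The fifth ran over 5372 bp from TIF1, an eIF4A gene, across UTP30 and KTR2 to SNR42 (chromosome XI, 554249 to 559620, 8.91). It overlapped 3 wild-type peaks. In that list 63.5% of UTP30 was covered by several peaks together, and 44.8% of KTR2 was covered.

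The 13 peaks joined in wild type and split in dbp2Δ involved 7 divergent, 5 tandem and 1 convergent arrangement, and 11 had all genes covered in both lists. The convergent one, and the divergent one with a Ty element, were classed by genes that are not next neighbours. Gaps of the 13 in dbp2Δ ran from 310 to 568 bp with a median of 396. No gap in the dbp2Δ list was of 290 bp or less. The divergent ones were PAC10 with YGR079W, SKY1 with GUA1, RBG1 with FUN12, TOS1 with YSY6, SLC1 with LHP1, PAM18 with RLP24, and a Ty element with the tRNA gene YNCM0020W. The GMP synthase gene GUA1 and the SR protein kinase gene SKY1 start 750 bp apart. In dbp2Δ they lay under peaks of 3.55 and 2.28 with a gap of 426 bp (chromosome XIII, 701168 to 701593) wholly between the genes, and in wild type under 1 peak of 5487 bp (698177 to 703663, 3.66).

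The tandem ones were RPL6B with FPR4 (wild-type peak 6.06, gap 378 bp), HIS1 with the cytosine permease gene FCY2 (5.34, 347 bp), the tRNA gene YNCG0037W with TIF4631, an eIF4G gene (2.97, 324 bp), NEW1 with CHP1 (2.68, 388 bp) and SMX3 with DPM1 (2.25, 534 bp). The convergent one was VPS75 with CWC25 and SUI1 (3.91, 396 bp), where 38.5% of CWC25 was covered in dbp2Δ. YNCG0037W was joined to a neighbour in either list, with the divergent YGR161C-C of a Ty element in dbp2Δ and with the tandem TIF4631 in wild type.

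Counting breaks between neighbours inside larger peaks as well, 11 pairs joined in dbp2Δ were separate in wild type and 21 joined in wild type were separate in dbp2Δ. The 11 were 7 tandem, 3 divergent and 1 convergent pair, and 4 of their gaps were of 290 bp or less. The 21 were 14 divergent, 6 tandem and 1 convergent pair, with gaps of 305 to 908 bp (median 388), 9 of them wholly between the genes. No gap as short as these 4 was seen in the dbp2Δ list. Peaks of at most 290 bp apart were also bridged in both lists, an alternative chosen after the data were seen. This left 5 split dbp2Δ peaks and 15 split wild-type peaks.

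Several of the 21 involved histone, ribosomal protein and snoRNA genes. HTB1 and HTA1, the divergent histone H2B and H2A genes, lay in dbp2Δ under peaks of 4.11 (chromosome IV, 913928 to 914938) and 4.06 (915259 to 917473) with a gap of 320 bp inside the 817 bp between the genes. In wild type 1 peak of 6.15 (913904 to 917449) covered both and ADK1. RPS15 and RPP2A lay under dbp2Δ peaks of 8.36 and 7.89 with a gap of 311 bp, and under the wild-type peak of 9.79. RPS16B and RPL13A lay under dbp2Δ peaks of 7.30 and 10.02 with a gap of 320 bp, and under a wild-type peak of 8.25 (chromosome IV, 304993 to 310910). RRP14 and SNR38 lay under dbp2Δ peaks of 3.63 and 5.74 with a gap of 391 bp, and under a wild-type peak of 7.15. The divergent histone pairs HHT2 with HHF2, HHF1 with HHT1, and HTA2 with HTB2 were joined in both lists. These pairs were picked after their values were seen.

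**Figure D5:**
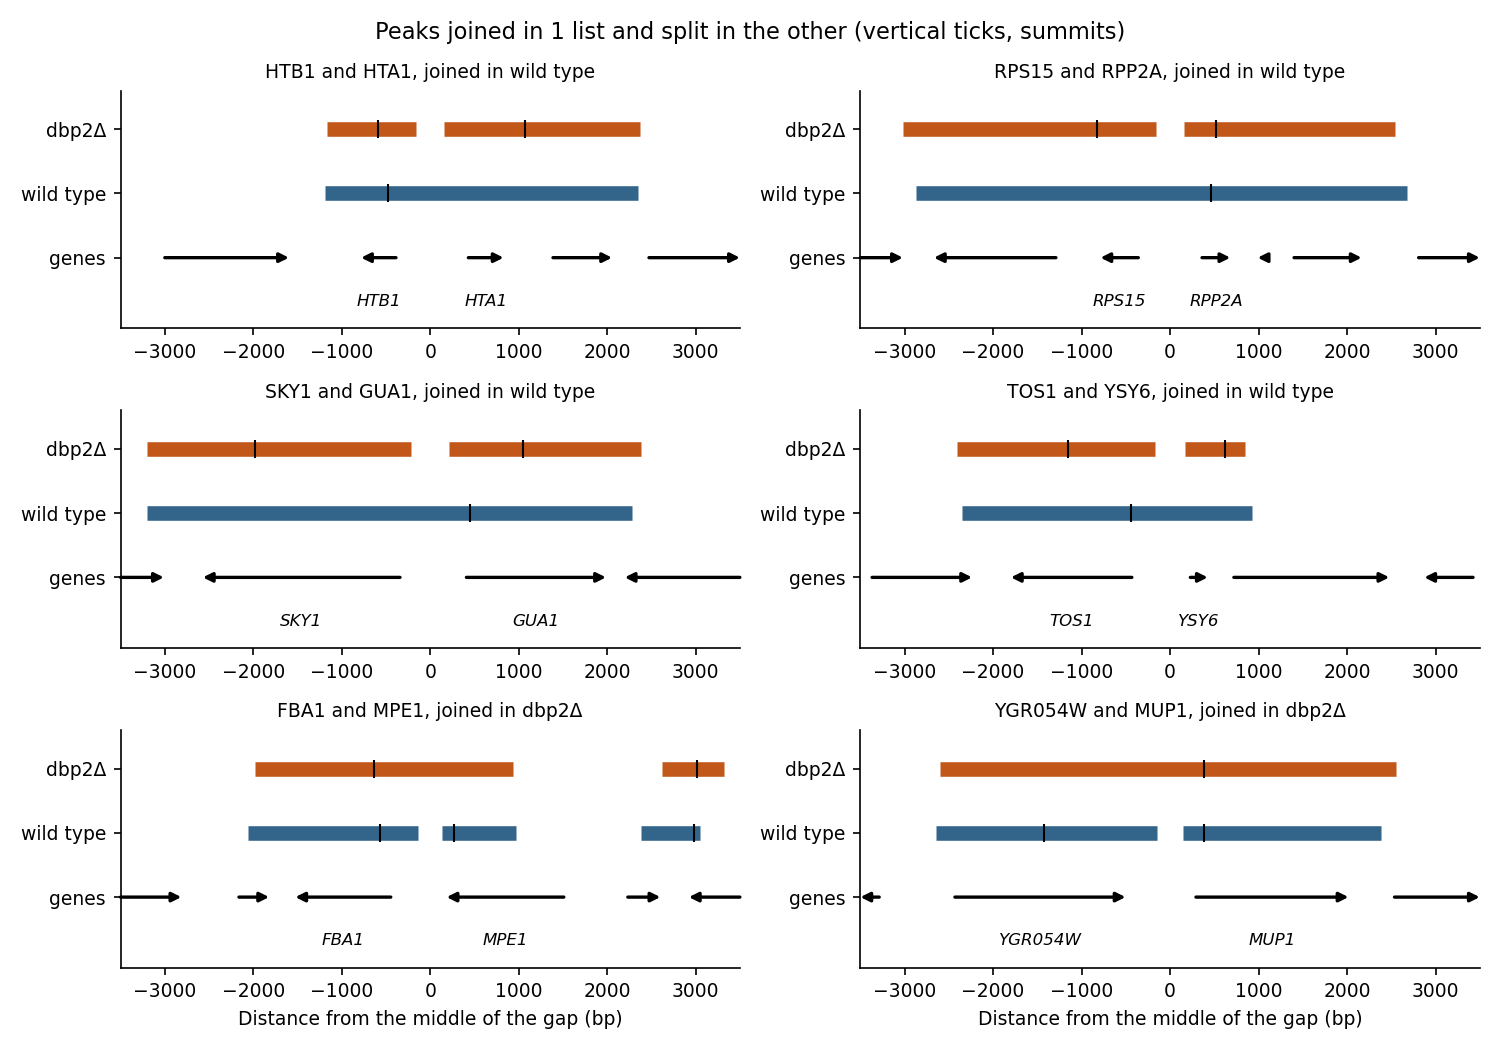
Peaks (bars, summits as vertical ticks) and genes (arrows in the direction of transcription) around 6 gene pairs joined in 1 list and separate in the other, by distance in bp from the middle of the gap, with genes cut at the panel edge. In dbp2Δ the gaps at HTB1 and HTA1, RPS15 and RPP2A, SKY1 and GUA1, and TOS1 and YSY6 lie between divergent starts (320, 311, 426 and 331 bp), and in wild type those at FBA1 and MPE1 and at YGR054W and MUP1 lie between tandem genes (268 and 284 bp).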

How the data were processed

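Per the submitters' processing notes, reads were handled with Trimmomatic 0.36, Bowtie2 2.3.3.1 and MACS2 2.1.2 on build R64. Per the file headers, 1 call per strain was made on 3 pooled immunoprecipitates against 3 pooled inputs at a q-value cutoff of 0.05. The deposited lists give start, end and summit coordinates, counted from 1, and a fold enrichment (ratio to the local background). The deposited pileup signal and −log10 p and q values were not compared.

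Genes came from a RefSeq table of R64 with 6431 nuclear genes, 6002 protein-coding. Coding lengths were multiples of 3 for 96.4%, so spans hold no UTRs. Strand was read from the systematic name, and 1 gene had none. A member gene was covered over at least 50% by that 1 peak. Neighbours were ordered by midpoint. Shares carry Wilson 95% intervals over peaks or pairs. Counting was tested on simulated peaks. Python 3.11.15, pandas 2.3.3 and SciPy 1.17.1 were used.

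The members, gene lists and rules were chosen with earlier results of these data known, and the displacement of peaks toward 3′ ends had been seen in single-gene peaks. Named peaks were, per list, the 6 with the most genes, the 4 highest of each orientation among peaks with exactly 2 genes that do not overlap, the split peaks, the 3 nearest to either side of the threshold, and those next to DBP2. Alternatives were a cover of 25% or 80%, peaks of at least 2-fold enrichment, merged overlapping genes, protein-coding genes alone, peaks of at least 290 bp, bridging, and another definition of a split. Sequences were not analysed here.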

Additional observations from a re-analysis of the deposited data

How the results depend on the processing

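Of 162 values recomputed over 20 results, 132 stayed within their interval or within 1.5 times the count and 30 moved. With 25% of a gene required, 457 dbp2Δ peaks had 2 or more genes. The joined pairs were then 41.0% tandem, 10.2% divergent and 48.9% convergent in dbp2Δ, and 15.6% divergent and 39.8% convergent in wild type. Median widths were 2131 bp in dbp2Δ and 2209 bp in wild type, 13 dbp2Δ peaks were split, 73.2% and 73.8% of covered neighbours were joined, and 35.4% and 50.3% of divergent ones. With 80% required, median widths were 2886 and 2851 bp, 11 dbp2Δ and 7 wild-type peaks were split, and 83.9% and 85.8% of covered neighbours were joined. With peaks of at least 2-fold enrichment, 4 and 5 were split, 86.7% and 86.8% of covered neighbours were joined, and 62.8% and 73.8% of divergent ones. With protein-coding genes alone, median widths were 2901.5 and 2868 bp, and 75.4% of covered neighbours were joined in dbp2Δ. When a split meant 2 peaks of the other list lying at least 50% inside the joined peak, 58 dbp2Δ and 30 wild-type peaks were split. The order of the split counts between the lists thus turned under the 80% cover and under this definition, and the cause was not tested. The lower divergent and higher convergent share, the lower share of summits in a member gene and the higher share of genes joined past a 3′ end in dbp2Δ kept their direction under each of these settings that recomputes them. Bridging gaps of up to 100 bp changed nothing, since no gap was that small.

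No paired analysis was possible because the authors pooled the replicates before calling peaks, and replicates could not be left out in turn for the same reason. Depth per replicate and replicate error are therefore unknown, and the peak lists hold no signal below the calling threshold, so that a gap is a stretch without a called peak at this depth and not a stretch without Pol II. The pooled immunoprecipitate was deeper and the pooled input shallower in dbp2Δ.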
